A study of Mus musculus with 9 samples.

Results

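The 9 enzymes described here make serine and move its carbon through folate: Phgdh, Psat1, Psph, Shmt1, Shmt2, Mthfd1, Mthfd1l, Mthfd2 and Aldh1l2. They were taken by name from a table of 24421 genes, and the set was selected on the level of Phgdh, which had been seen highest in the Lgr5-enriched population. The levels of Phgdh in that population are therefore a description, with no test. RNA was sequenced from 9 libraries of colon epithelium of adult C57BL/6J mice, all labelled female, for which the labels name no drug treatment or genetic change. The 3 populations, with 3 libraries each, were sorted by surface antigens from cells of detached crypts. Sorting for Epcam+ and Cd44+ cells gave both lower-crypt populations, with Kit absent for the Lgr5-enriched and Kit present for the goblet-enriched. Enterocyte-enriched cells were Epcam+ and Cd66a-high, and Cd44 was absent. By the labels, Lgr5- and goblet-enriched cells come from the bottom of the crypt and enterocyte-enriched cells from its top, and every population is an enrichment by antigens rather than a pure cell type.

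Serine is made from an intermediate of glycolysis by 3 enzymes in a row. Serine hydroxymethyltransferases then split it into glycine and a one-carbon unit bound to folate, in the cytosol and in mitochondria. The mitochondrial enzymes turn that unit into formate, which leaves for the cytosol and is rebound to folate there for purine, thymidylate and methyl group synthesis. Dividing cells, such as those of the lower crypt, draw on these products to copy their DNA.

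Levels are in TPM (a gene's transcripts per 1000000 of the library), which corrects for transcript length and so allows genes to be compared with each other. Between 11.2 and 26.8 M reads (M, 1000000) fell in genes per library, with Lgr5-enriched replicate 1 the deepest. That library also held 49046 TPM of the pre-ribosomal transcript Rn45s, against 2356 to 6009 TPM in the others. Enterocyte-enriched replicate 1 went against its label of female: it held 0.128 TPM of Xist, against 110.3 to 203.7 TPM elsewhere, and 138.6 TPM of Y-linked genes, against at most 0.325 TPM. Counts of members called are given with and without this library, counts of the related lists also without it where it changed them, the members' fold changes without it stand together after their counts, and the calls printed for related genes were also made without it. The summed level of 8 stem cell markers was 1471 to 1688 TPM in the Lgr5-enriched libraries, 745 to 870.1 TPM in the goblet-enriched and 165 to 293 TPM in the enterocyte-enriched. The sum of 8 goblet markers was 33499 to 43324 TPM in the goblet-enriched libraries, but also 12954 to 20246 TPM in the enterocyte-enriched libraries. Zg16 and Tff3 went the other way, with means of 345 and 1120 TPM in the goblet-enriched and 5481 and 1918 TPM in the enterocyte-enriched libraries. Clca1 and Fcgbp were not called between those populations, and the means of Muc2, Spdef, Atoh1 and Agr2 were highest in the goblet-enriched libraries. The sum of 8 colonocyte markers was 4930 to 7545 TPM in the enterocyte-enriched libraries and at most 1011 TPM elsewhere. Tuft cell markers, 6 of 7 in the table, reached 48.3 TPM in goblet-enriched replicate 3, and 7 enteroendocrine markers summed to 149 to 297 TPM outside the goblet-enriched libraries and 13.1 to 79.5 TPM in them. Of these, Pyy, Gcg and Insl5 had goblet-enriched means of 1.03, 0.562 and 0.956 TPM. Chga was not called in either goblet-enriched comparison. Chgb and Neurod1 had goblet-enriched means of 27.2 and 1.21 TPM, above the Lgr5-enriched (19.8 and 0.424 TPM) and below the enterocyte-enriched means. Leukocyte markers summed to 250.2, 147 and 20.3 TPM in enterocyte-enriched replicates 1 to 3, of which Lyz2 made up 232, 133 and 12.9 TPM. Ptprc, which defines leukocytes, was listed at 0 in Lgr5-enriched replicate 2 and goblet-enriched replicate 1 and was highest, at 1.195 TPM, in goblet-enriched replicate 3. The 8 stromal and endothelial markers summed to at most 3.00 TPM. The part of other cell types in the results below was not tested, and in sorted bulk RNA fewer cells of a type and less RNA per cell cannot be told apart.

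Promoter stretches of Phgdh, Psat1, Shmt1, Mthfd1 and Mthfd2 are shown first. RefSeq promoter sequences on GRCm38.p6 were at hand for 8 of the 9 members. In the 250 bases upstream of the start, both strands were searched for CCAAT, the box bound by the factor NF-Y, for the E-box CACGTG, for TGATGNAA, an element bound by ATF4, and for the longer site of NRF1. CCAAT was found in 6 of 8 members, and in 33.8% of 32851 promoters in all. The units differ, since a member counts with a match in any of its promoter entries and the share is over entries. The 8 members had 9 entries, and the other entry of Psat1 held no CCAAT. Shmt2 and Mthfd1l held none, and their promoters and that of Psph, which held it, are not printed. The NRF1 site was found in 1 member, Shmt2, and in 0.782% of all promoters. Neither the E-box nor the ATF4 element was found in any window of the 8 members, against 6.02% and 3.45% of all promoters. In the stretches below, written 5′ to 3′ on the gene's strand, capitals mark CCAAT or its reverse complement.
Phgdh: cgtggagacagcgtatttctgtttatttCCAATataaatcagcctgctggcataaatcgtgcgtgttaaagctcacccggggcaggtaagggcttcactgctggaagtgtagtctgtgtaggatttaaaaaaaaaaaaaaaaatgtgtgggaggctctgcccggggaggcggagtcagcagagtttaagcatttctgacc
Psat1: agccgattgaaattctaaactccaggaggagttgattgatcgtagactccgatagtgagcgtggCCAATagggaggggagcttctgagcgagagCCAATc
Shmt1: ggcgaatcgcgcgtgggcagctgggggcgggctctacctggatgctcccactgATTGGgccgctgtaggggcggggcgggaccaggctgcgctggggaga
Mthfd1: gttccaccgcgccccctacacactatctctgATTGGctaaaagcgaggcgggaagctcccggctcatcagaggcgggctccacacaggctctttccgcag
Mthfd2: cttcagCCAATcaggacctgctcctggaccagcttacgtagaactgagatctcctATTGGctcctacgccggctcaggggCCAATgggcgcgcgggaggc
The Phgdh stretch is chr3:98339991-98340190 on the minus strand, 22 to 221 bases upstream of the RefSeq start, and a second CCAAT nearer to the start lies at its edge and is not shown. The Psat1 stretch is chr19:15925060-15925159 on the minus strand, and holds 2 matches. The Shmt1 stretch is chr11:60811266-60811365 on the minus strand, and holds 1. The Mthfd1 stretch is chr12:76255132-76255231 on the plus strand, and holds 1. It lies in an exon of Gm47525, a noncoding gene on the opposite strand annotated as a bidirectional promoter transcript. The Mthfd2 stretch is chr6:83317607-83317706 on the minus strand, and holds 3. GENCODE annotates transcripts of Psat1, Shmt1 and Mthfd2 that begin farther upstream, so these 3 stretches lie in introns of those genes. A match is a run of letters only, and no binding was measured.

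The first 2 serine synthesis enzymes, Phgdh and Psat1, were lower in the enterocyte-enriched libraries than in all others, whereas the third, Psph, varied little. Phgdh, the dehydrogenase that starts the pathway, lies at chr3:98313170-98339990. Its level was 81.1, 26.5 and 59.6 TPM in Lgr5-enriched replicates 1 to 3. It was 16.2, 9.72 and 22.5 TPM in the goblet-enriched replicates and 2.78, 0.852 and 3.07 TPM in the enterocyte-enriched replicates. The ranges of the 3 populations did not overlap, although the Lgr5-enriched libraries were spread widely and the nearest pair of those 2 populations stood at 26.5 and 22.5 TPM. The Lgr5-enriched mean of 55.7 ± 27.5 TPM (SD, n = 3) was 3.45 times the goblet-enriched mean of 16.2 ± 6.41 TPM (SD, n = 3) and 24.9 times the enterocyte-enriched mean of 2.23 ± 1.21 TPM (SD, n = 3). Those comparisons chose the gene and are not tested. Between the populations that the choice did not rest on, Phgdh was higher in the goblet-enriched than in the enterocyte-enriched libraries by 2.42 ± 0.47 (SE) on the log2(TPM + 1) scale (limma, adjusted p = 0.00308). The processed pseudogene Phgdh-ps1 is annotated but was not a row of the table, and reads shared with it cannot be told apart.

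Psat1, the transaminase of the second step, lies at chr19:15904678-15947337. It stood at 47.6, 14.7 and 22.6 TPM in the Lgr5-enriched replicates, 23.9, 11.0 and 19.1 TPM in the goblet-enriched replicates, and 4.34, 3.08 and 5.25 TPM in the enterocyte-enriched replicates. The first 2 populations overlapped, and both lay above every enterocyte-enriched library. The enterocyte-enriched level was below the Lgr5-enriched level by a log2 fold change of -2.35 ± 0.41 (SE; limma, adjusted p = 0.00165) and the goblet-enriched level was above the enterocyte-enriched level by 1.82 ± 0.41 (SE; adjusted p = 0.00707). Goblet-enriched against Lgr5-enriched gave -0.53 ± 0.41 (SE), which did not pass (limma, adjusted p = 0.343). A single library carried much of the Lgr5-enriched mean, which was 28.3 TPM and became 18.7 TPM without Lgr5-enriched replicate 1.

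Psph, the phosphatase that releases serine, lies at chr5:129765558-129787449 and varied little. Its level was 14.08, 14.09 and 13.0 TPM in the Lgr5-enriched replicates, 10.6, 12.2 and 10.2 TPM in the goblet-enriched replicates and 9.47, 9.71 and 10.3 TPM in the enterocyte-enriched replicates. The Lgr5-enriched libraries lay above all others, by less than the distance seen for Phgdh or Psat1 against the enterocyte-enriched libraries. The log2 fold change of enterocyte-enriched against Lgr5-enriched was -0.44 ± 0.14 (SE; limma, adjusted p = 0.0262). That call held in 11 of 20 alternatives, the adjusted p ran from 0.0111 to 0.883 over them, and it was 0.0663 without enterocyte-enriched replicate 1. The median gene differed by -0.35 in the same comparison, and after scaling to the median of ratios the Psph difference was -0.06 (adjusted p = 0.741). Neither goblet-enriched comparison passed for Psph, with adjusted p-values of 0.127 against Lgr5-enriched and 0.428 against enterocyte-enriched. Psph shares 452 exonic bases with Cct6a on the opposite strand, whose levels were 271 ± 38.9 (Lgr5-enriched), 148 ± 15.2 (goblet-enriched) and 114 ± 11.1 TPM (enterocyte-enriched; SD, n = 3), and strand use in the counting is not given in the sources used here. The ratio of Phgdh to Psat1 within a library was 1.70 to 2.64 in the Lgr5-enriched population, 0.679 to 1.18 in the goblet-enriched and 0.276 to 0.640 in the enterocyte-enriched. Since Phgdh was chosen for its Lgr5-enriched level, the height of this ratio in that population is a description only.

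**Figure D1:**
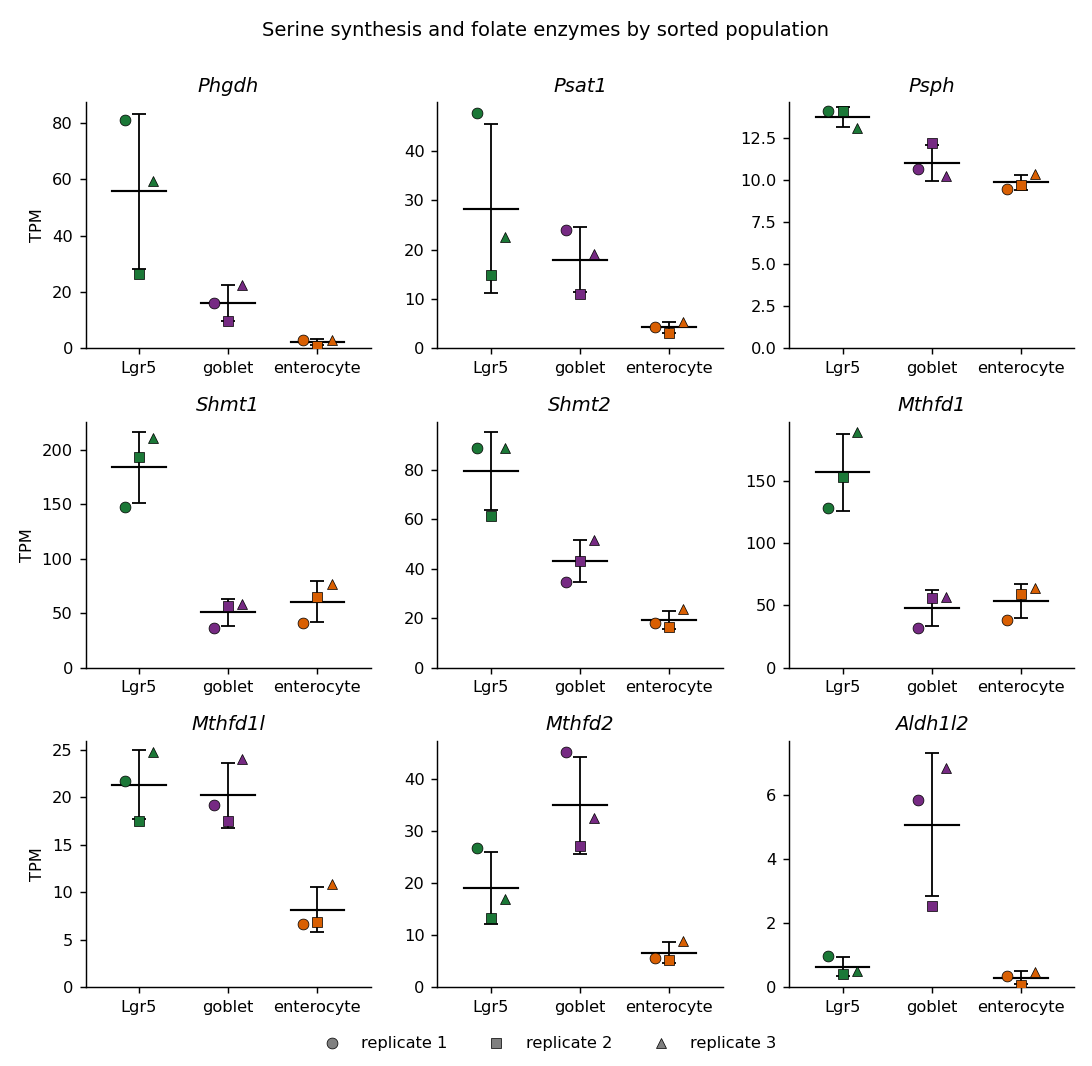
Level of each enzyme in TPM (vertical axes, starting at 0, a separate scale for each gene) in the 3 sorted populations, with the replicates as symbols and mean ± SD as black lines (n = 3). Shmt1 and Mthfd1 share a pattern, high in the Lgr5-enriched libraries and low in the others, whereas Mthfd2 and Aldh1l2 are highest in the goblet-enriched libraries.

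Shmt1 and Mthfd1, the cytosolic folate enzymes, were the most abundant members and had a Lgr5-enriched mean 2.93 to 3.63 times that of either other population. Shmt1, the cytosolic serine hydroxymethyltransferase, lies at chr11:60788104-60811718. It stood at 148, 193 and 211 TPM in the Lgr5-enriched replicates, 36.7, 56.7 and 58.8 TPM in the goblet-enriched replicates and 40.6, 64.4 and 76.9 TPM in the enterocyte-enriched replicates. The Lgr5-enriched libraries lay above all others, and the other populations overlapped. The log2 fold change was -1.85 ± 0.27 (SE; limma, adjusted p = 0.00106) for goblet-enriched and -1.62 ± 0.27 (SE; adjusted p = 0.00118) for enterocyte-enriched against Lgr5-enriched. Goblet-enriched against enterocyte-enriched gave -0.24 ± 0.27 (SE; limma, adjusted p = 0.496).

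Mthfd1, which carries 3 activities that interconvert the folate one-carbon forms in the cytosol and captures formate, lies at chr12:76255298-76319803. Its level was 128, 153 and 190 TPM (Lgr5-enriched replicates), 31.5, 56.3 and 56.8 TPM (goblet-enriched replicates) and 38.1, 58.8 and 64.2 TPM (enterocyte-enriched replicates). As for Shmt1, the Lgr5-enriched libraries lay above all others and the other populations overlapped. The log2 fold change against Lgr5-enriched was -1.71 ± 0.27 (SE; limma, adjusted p = 0.00191) in the goblet-enriched and -1.55 ± 0.27 (SE; adjusted p = 0.00171) in the enterocyte-enriched population. Between those 2 populations it was -0.17 ± 0.27 (SE; limma, adjusted p = 0.646). Across the 9 libraries Pearson's r of Shmt1 with Mthfd1 was 0.995 on the log2(TPM + 1) scale, a description over libraries that share populations and replicate numbers. For both genes the replicate 1 library was the lowest of its population in all 3 populations.

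The 4 mitochondrial folate enzymes did not follow that pattern, and they differed among themselves in where the goblet-enriched population stood. Shmt2, the mitochondrial serine hydroxymethyltransferase, lies at chr10:127517123-127522444. It stood at 88.84, 61.3 and 88.84 TPM in the Lgr5-enriched replicates, 34.5, 43.2 and 51.6 TPM in the goblet-enriched replicates and 17.9, 16.4 and 23.6 TPM in the enterocyte-enriched replicates. The 3 populations formed separate steps with no overlap. The enterocyte-enriched level was lower than the Lgr5-enriched level by a log2 fold change of -1.99 ± 0.21 (SE; limma, adjusted p = 0.000245), and the goblet-enriched level was higher than the enterocyte-enriched level by 1.12 ± 0.21 (SE; adjusted p = 0.0029). The goblet-enriched level was lower than the Lgr5-enriched level by -0.87 ± 0.21 (SE; limma, adjusted p = 0.0134). That last call ended under median-of-ratios scaling (adjusted p = 0.0500096), without Lgr5-enriched replicate 3 (0.0569) and without replicate 1 of all populations (0.0782).

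Mthfd1l, the synthetase that releases formate in mitochondria, lies at chr10:3973118-4167081. Its level was 21.7, 17.5 and 24.7 TPM in the Lgr5-enriched replicates and 19.1, 17.45 and 24.1 TPM in the goblet-enriched replicates. It was 6.63, 6.89 and 10.9 TPM in the enterocyte-enriched replicates. The Lgr5- and goblet-enriched ranges nearly coincided, with a log2 fold change of -0.07 ± 0.22 (SE; limma, adjusted p = 0.825) whose sign turned under 4 alternatives. Both populations were higher than the enterocyte-enriched population, which differed by -1.31 ± 0.22 from Lgr5-enriched (SE; limma, adjusted p = 0.00139), and goblet-enriched exceeded it by 1.23 ± 0.22 (SE; adjusted p = 0.0022).

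Mthfd2, the mitochondrial dehydrogenase and cyclohydrolase upstream of Mthfd1l, lies at chr6:83305691-83325908. It stood at 26.7, 13.4 and 17.0 TPM in the Lgr5-enriched replicates, 45.3, 27.1 and 32.6 TPM in the goblet-enriched replicates and 5.53, 5.25 and 8.92 TPM in the enterocyte-enriched replicates. Every goblet-enriched library lay above every Lgr5-enriched library, the closest pair being 27.1 and 26.7 TPM, and the enterocyte-enriched libraries were lowest. The goblet-enriched level was above the enterocyte-enriched level by a log2 fold change of 2.25 ± 0.30 (SE; limma, adjusted p = 0.000413), and the enterocyte-enriched level was below the Lgr5-enriched level by -1.38 ± 0.30 (SE; adjusted p = 0.0044). Goblet-enriched against Lgr5-enriched gave 0.87 ± 0.30 (SE; limma, adjusted p = 0.0473). That call held in 8 of 20 alternatives, with adjusted p from 0.00711 to 0.148. It ended when any of 7 libraries was left out, including enterocyte-enriched replicate 1 (adjusted p = 0.0553), and with other pseudocounts or no filter on low values.

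Aldh1l2, the mitochondrial dehydrogenase that oxidizes formyl-folate to CO2 and yields NADPH, lies at chr10:83487450-83534140 and was the scarcest member. Its level was 5.84, 2.54 and 6.84 TPM in the goblet-enriched replicates, against 0.969, 0.411 and 0.5003 TPM in the Lgr5-enriched replicates and 0.345, 0.0721 and 0.462 TPM in the enterocyte-enriched replicates. All goblet-enriched libraries lay above all others. The gene passed the filter on low values only through the goblet-enriched population, so it could be kept only by being higher there, and its difference from the other populations is given as a description with no test. These levels rest on 81 to 213 reads in the goblet-enriched libraries and 3 to 61 reads elsewhere. The log2 fold change of goblet-enriched was 1.84 ± 0.32 (SE) against Lgr5-enriched and 2.16 ± 0.32 (SE) against enterocyte-enriched. The added 1 TPM shrinks differences at this level, and with 0.1 TPM added the values were 2.79 and 3.77. Enterocyte-enriched against Lgr5-enriched gave -0.33 ± 0.32 (SE; limma, adjusted p = 0.416). Aldh1l2 shares 1056 exonic bases with D10Wsu102e on the opposite strand. That gene was highest in the Lgr5-enriched population, at 58.2 ± 5.75, 42.1 ± 6.87 and 26.6 ± 0.534 TPM (SD, n = 3; Lgr5-, goblet- and enterocyte-enriched in turn).

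**Figure D2:**
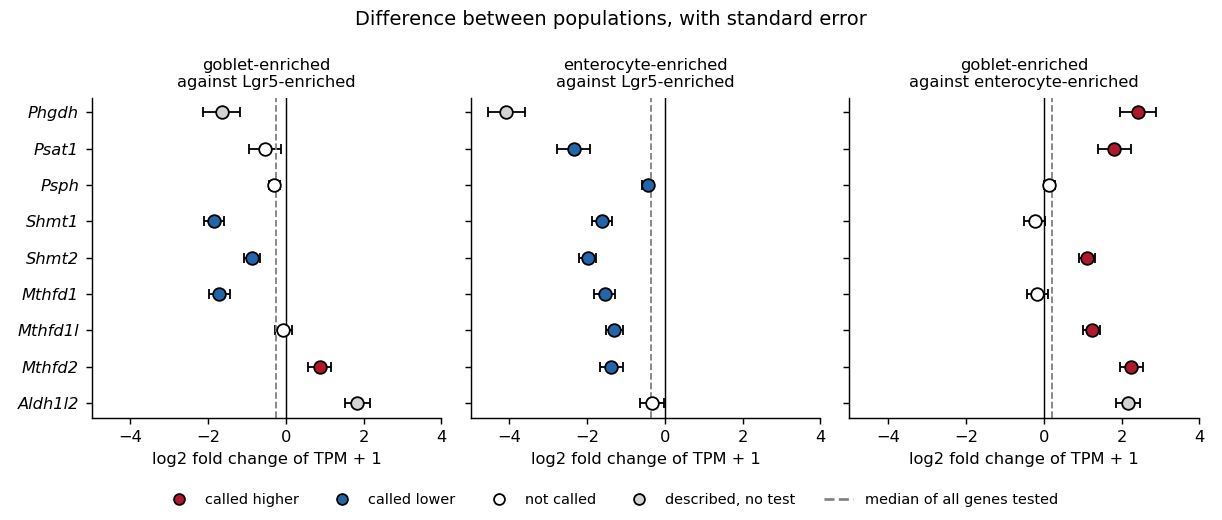
Log2 fold change of TPM + 1 (horizontal axes) for each enzyme in the 3 comparisons, with the standard error as whiskers. Filled red and blue points passed at an adjusted p below 0.05, white points did not, the grey points of Phgdh and Aldh1l2 are described with no test, and the dashed line is the median of all 12888 genes tested. In the comparison of enterocyte-enriched with Lgr5-enriched the tested enzymes other than Psph and Aldh1l2 lie left of the dashed line by 0.96 or more, whereas in goblet-enriched against Lgr5-enriched they spread to both sides.

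Counts of members leave out Aldh1l2, for the reason given above, and Phgdh in the comparisons that chose it. Of 7 members, 1 was higher and 3 were lower in the goblet- than in the Lgr5-enriched population, where 34.3% of all 12888 genes tested were called (10.7% higher and 23.6% lower; limma, adjusted p below 0.05). Enterocyte-enriched against Lgr5-enriched gave 7 of 7 lower and 0 higher, where 49.6% of all genes were called (12% higher and 37.6% lower). In goblet-enriched against enterocyte-enriched, 5 of 8 were higher and 0 lower, where 44.1% of all genes were called (28.2% higher and 15.9% lower). Median log2 fold changes of these members were -0.53, -1.55 and 1.18, against -0.26, -0.35 and 0.20 for all genes tested. The comparisons share libraries and are not independent.

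Without enterocyte-enriched replicate 1 the counts were 0 higher and 3 lower of 7, 6 lower of 7, and 5 higher of 8, the calls lost being those of Mthfd2 and Psph described above. The log2 fold changes of enterocyte-enriched against Lgr5-enriched were then -2.38 for Psat1, -1.36 for Shmt1, -1.94 for Shmt2, -1.32 for Mthfd1, -1.19 for Mthfd1l and -1.29 for Mthfd2 (limma, adjusted p from 0.0011 to 0.0177). Goblet-enriched exceeded enterocyte-enriched by 2.57 for Phgdh, 1.85 for Psat1, 1.07 for Shmt2, 1.12 for Mthfd1l and 2.16 for Mthfd2 (limma, adjusted p from 0.00222 to 0.0207). Without Lgr5-enriched replicate 3, goblet-enriched against Lgr5-enriched gave 0 higher and 2 lower of 7. Scaling to the median of ratios changed the balance of calls over all genes, from 1384 higher and 3039 lower to 1850 and 1545 (goblet- against Lgr5-enriched), from 1549 and 4847 to 3028 and 2522 (enterocyte- against Lgr5-enriched) and from 3633 and 2054 to 2564 and 2741 (goblet- against enterocyte-enriched). It shifted the median gene by 0.21, 0.37 and -0.17. Under it the fold changes of Shmt1 were -1.63 and -1.21 in the 2 comparisons with Lgr5-enriched, those of Mthfd1 were -1.49 and -1.14, and that of Mthfd2 in goblet-enriched against Lgr5-enriched was 1.08, with adjusted p-values from 0.000979 to 0.0293.

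The summed level of the 9 enzymes was 495 to 627 TPM in the Lgr5-enriched libraries, 224 to 283 TPM in the goblet-enriched and 126 to 204 TPM in the enterocyte-enriched. The cytosolic enzymes Shmt1 and Mthfd1 gave 276 to 401 TPM of this in the Lgr5-enriched, 68.2 to 116 TPM in the goblet-enriched and 78.7 to 141 TPM in the enterocyte-enriched libraries. The 4 mitochondrial enzymes summed to 92.5 to 138 TPM, 90.3 to 115 TPM and 28.6 to 43.9 TPM in the same order, so the Lgr5- and goblet-enriched ranges overlapped. The 3 serine synthesis enzymes summed to 55.3 to 143 TPM, 32.9 to 51.9 TPM and 13.6 to 18.6 TPM. This sum and the total include Phgdh, whose Lgr5-enriched level chose the set, so their height in that population is a description. Psat1 alone overlapped between Lgr5- and goblet-enriched libraries (14.7 to 47.6 and 11.0 to 23.9 TPM). Psph alone did not (13.0 to 14.1 and 10.2 to 12.2 TPM).

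**Figure D3:**
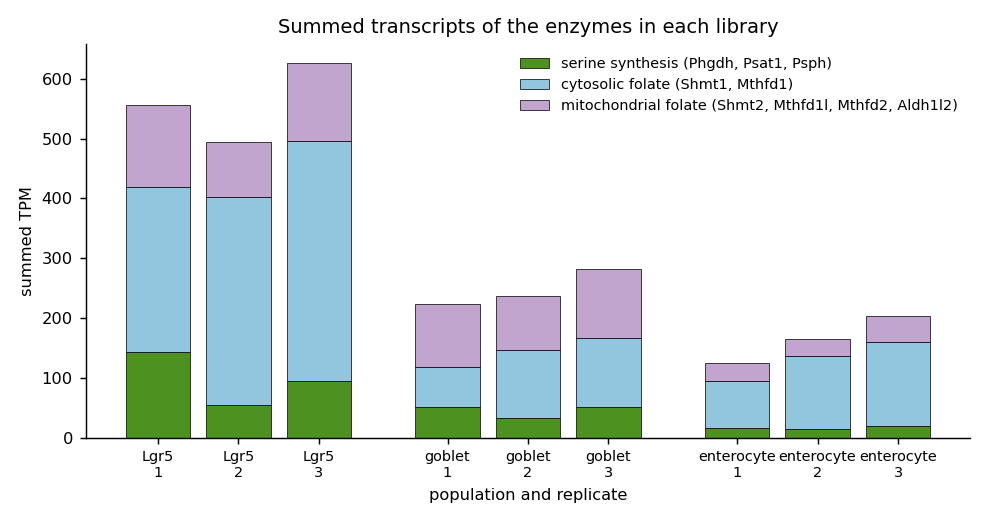
Summed TPM of the enzymes (vertical axis, from 0) in each of the 9 libraries, stacked by role. The serine synthesis part includes Phgdh, whose Lgr5-enriched level chose the set. The mitochondrial part is of like height in the Lgr5- and goblet-enriched libraries (92.5 to 138 and 90.3 to 115 TPM), whereas the cytosolic part is smaller in every goblet-enriched library.

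The balance between the compartments was read within each library as the ratio of a mitochondrial enzyme to its cytosolic counterpart, which no scaling of a library changes. Shmt2 over Shmt1 was 0.939, 0.763 and 0.879 in the goblet-enriched replicates, 0.602, 0.317 and 0.421 in the Lgr5-enriched and 0.440, 0.255 and 0.306 in the enterocyte-enriched. Mthfd2 over Mthfd1 was 1.44, 0.482 and 0.574 in the goblet-enriched replicates, 0.209, 0.0870 and 0.0895 in the Lgr5-enriched and 0.145, 0.0893 and 0.139 in the enterocyte-enriched. In both ratios the goblet-enriched libraries lay above all 6 others, and only goblet-enriched replicate 1 held more Mthfd2 than Mthfd1. The geometric means of the second ratio were 0.735, 0.118 and 0.122 in the goblet-, Lgr5- and enterocyte-enriched populations. The exact two-sided permutation test gave p = 0.1 for the goblet-enriched population against each other in both ratios, which is the smallest p that 3 against 3 libraries allow, and 0.15 after adjustment over the 6 tests. Both ratios of the goblet-enriched libraries also lay above those of enterocyte-enriched replicates 2 and 3 alone. Enterocyte-enriched against Lgr5-enriched gave exact p = 0.4 for Shmt2 over Shmt1 and 0.9 for Mthfd2 over Mthfd1.

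**Figure D4:**
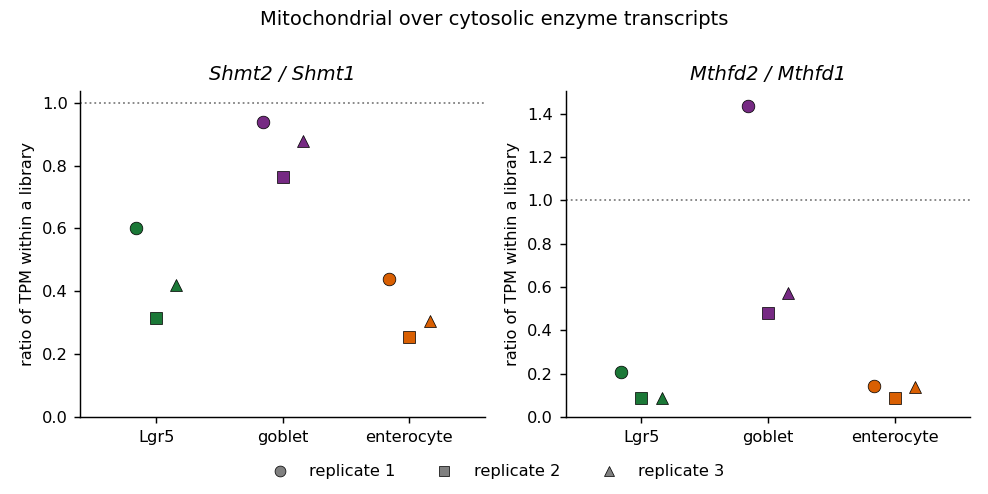
Ratio of the TPM of a mitochondrial to a cytosolic enzyme within a library (vertical axes, from 0; dotted line at equal levels), for Shmt2 over Shmt1 and Mthfd2 over Mthfd1, with replicates as symbols. All goblet-enriched points lie above all Lgr5- and enterocyte-enriched points in both panels.

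Summed markers of dividing cells also fell from Lgr5- to goblet- to enterocyte-enriched, with the Lgr5- and goblet-enriched ranges overlapping for G2/M genes. The means of Phgdh, Psat1, Psph, Shmt2 and Mthfd1l fell in the same order, though Phgdh was chosen for its Lgr5-enriched level. Goblet-enriched against Lgr5-enriched was not called for Psat1, Psph or Mthfd1l (limma, adjusted p = 0.343, 0.127 and 0.825). Psph was also not called in goblet-enriched against enterocyte-enriched (limma, adjusted p = 0.428). The means of Shmt1, Mthfd1, Mthfd2 and Aldh1l2, and the ratios above, did not fall in that order. Shmt1 and Mthfd1 were highest in the Lgr5-enriched libraries, as the S phase sum was. They departed only between the goblet- and enterocyte-enriched populations, where neither was called (limma, adjusted p = 0.496 and 0.646). The summed level of 20 S phase genes was 1578 to 2414 TPM in the Lgr5-enriched libraries, 612 to 982 TPM in the goblet-enriched and 330 to 603 TPM in the enterocyte-enriched. That of 15 G2/M genes was 1025 to 1402 TPM, 878 to 1083 TPM and 274 to 432 TPM. All 20 S phase genes and all 15 G2/M genes were lower in the enterocyte- than in the Lgr5-enriched population, with and without enterocyte-enriched replicate 1. Of all genes tested, 37.6% were lower in that comparison. In goblet-enriched against Lgr5-enriched 23.6% of all genes were lower and 10.7% higher, and 28.2% were higher in goblet-enriched against enterocyte-enriched. Goblet-enriched against Lgr5-enriched gave 18 of 20 S phase genes lower, led by the replication helicase subunit Mcm6 (-1.85), but 10 without Lgr5-enriched replicate 3 and 9 without replicate 1 of all populations. It also gave 9 of 15 G2/M genes lower and 1 higher, the mitotic kinase Plk1 (1.37). The G2/M count was less firm, at 14 lower with a replicate block, 3 under median-of-ratios scaling, 3 without goblet-enriched replicate 2, 7 without enterocyte-enriched replicate 1, 4 without Lgr5-enriched replicate 1 and 4 without Lgr5-enriched replicate 3. In goblet-enriched against enterocyte-enriched, 14 of 15 G2/M genes were higher (13 without enterocyte-enriched replicate 1). In that comparison 11 of 20 S phase genes were also higher, with 20 under a replicate block, 7 under median-of-ratios scaling, 6 without enterocyte-enriched replicate 1 and 4 without enterocyte-enriched replicate 2. Leaving out goblet-enriched replicate 2 or 3 gave 6 or 4. The part of cell division in the enzymes' levels was not tested. The growth regulator Myc stood at 91.1 ± 17.9, 62.8 ± 13.7 and 22 ± 6.94 TPM (SD, n = 3; Lgr5-, goblet- and enterocyte-enriched in turn) and was lower in the enterocyte- than in the Lgr5-enriched (-2.03; limma, adjusted p = 0.000434).

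Of 12 other folate genes tested, 5 were lower and 0 higher in goblet-enriched against Lgr5-enriched, 41.7% lower beside 23.6% of all genes, with a median of -0.55. In enterocyte-enriched against Lgr5-enriched 6 were lower and 3 higher (4 and 2 without enterocyte-enriched replicate 1), or 50% and 25% beside 37.6% and 12% of all genes. Tyms, which uses methylene-folate to make thymidylate, stood at 42.4 ± 7.29, 21.8 ± 4.17 and 17 ± 3.86 TPM (SD, n = 3; Lgr5-, goblet- and enterocyte-enriched in turn). It was lower than Lgr5-enriched by -0.93 in the goblet-enriched (limma, adjusted p = 0.00936) and by -1.28 in the enterocyte-enriched population (adjusted p = 0.00118). The folate carrier Slc19a1 gave -1.25 and -1.84 (limma, adjusted p = 0.00741 and 0.000688). Ggh, the hydrolase that trims the glutamate tail of folates, was instead highest in the enterocyte-enriched population. It stood at 640.6, 861 and 652 TPM in the enterocyte-enriched replicates, against 59.7 to 134 TPM in the Lgr5-enriched and 46.4 to 64.8 TPM in the goblet-enriched, and its enterocyte-enriched level exceeded the Lgr5-enriched by 2.92 (limma, adjusted p = 0.000187). Fpgs, which adds that tail, was lower in the enterocyte-enriched population (16.9 ± 6.2 TPM) than in the Lgr5-enriched (50.9 ± 9.52 TPM; SD, n = 3), by -1.59 (limma, adjusted p = 0.00175). Aldh1l1, the cytosolic relative of Aldh1l2, stood at 163 ± 37.9, 81.4 ± 19.8 and 249 ± 3.71 TPM (SD, n = 3; Lgr5-, goblet- and enterocyte-enriched in turn). Its goblet-enriched level was lower than the enterocyte-enriched by -1.63 (limma, adjusted p = 0.000454). Slc25a32, the mitochondrial folate carrier, did not pass in goblet-enriched against Lgr5-enriched (0.36; limma, adjusted p = 0.268) and was higher in goblet-enriched than in enterocyte-enriched (1.16; adjusted p = 0.00452). Goblet-enriched against enterocyte-enriched gave 2 higher and 3 lower of the 12, or 16.7% and 25% beside 28.2% and 15.9% of all genes. It gave 4 higher and 4 lower with a replicate block, and 2 higher and 2 lower without enterocyte-enriched replicate 1.

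Genes that carry or use serine or glycine had calls in both directions. Of 15 tested, 4 were higher and 3 lower in goblet-enriched against Lgr5-enriched, 3 higher and 5 lower in enterocyte-enriched against Lgr5-enriched, and 6 higher and 4 lower in goblet-enriched against enterocyte-enriched. The shares lower, 20%, 33.3% and 26.7%, stood beside 23.6%, 37.6% and 15.9% of all genes, and the shares higher, 26.7%, 20% and 40%, beside 10.7%, 12% and 28.2%. Without enterocyte-enriched replicate 1 the counts were 4 and 3, 3 and 4, and 5 and 4. Under median-of-ratios scaling the first became 4 higher and 1 lower and the second 6 higher and 3 lower. Sfxn1, which brings serine into mitochondria, stood at 106 ± 2.99, 72.2 ± 0.263 and 48.6 ± 4.35 TPM (SD, n = 3; Lgr5-, goblet- and enterocyte-enriched in turn). It passed in all 3 comparisons, at -0.55, -1.12 and 0.57 (limma, adjusted p = 0.0046, 0.000187 and 0.00269). Slc1a4, a carrier of neutral amino acids including serine, was highest in the goblet-enriched population at 78.6 ± 13.5 TPM, against 45.3 ± 8.97 in the Lgr5-enriched and 7.87 ± 1.38 in the enterocyte-enriched (SD, n = 3), and goblet-enriched exceeded enterocyte-enriched by 3.16 (limma, adjusted p = 2.37e-05). The glycine carrier Slc6a9 was higher in the goblet-enriched than in the Lgr5-enriched population by 1.18 (limma, adjusted p = 0.000222). In the glycine cleavage system, Gldc, the decarboxylase that opens glycine, was at most 0.324 TPM in any library and was not tested. Of the other 3 genes of that list only Gcsh was called, lower in the goblet- and enterocyte-enriched populations than in the Lgr5-enriched (-0.56 and -0.72; limma, adjusted p = 0.0256 and 0.00562). That is 33.3% of the 3 genes in either comparison, beside 23.6% and 37.6% of all genes. The goblet-enriched call of Gcsh ended when Lgr5-enriched replicate 1 or 3, or goblet-enriched replicate 2 or 3, was left out, and under 2 other scalings.

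Purine synthesis, which takes formyl groups from folate, was lower outside the Lgr5-enriched population in most of its 13 genes. Goblet-enriched against Lgr5-enriched gave 9 lower and 1 higher (69.2% lower beside 23.6% of all genes), but 5 lower under median-of-ratios scaling or without Lgr5-enriched replicate 3. Enterocyte-enriched against Lgr5-enriched gave 12 lower and 0 higher (11 lower without enterocyte-enriched replicate 1; 92.3% beside 37.6% of all genes). Paics stood at 211 ± 7.48, 53 ± 16 and 79.6 ± 21.7 TPM (SD, n = 3; Lgr5-, goblet- and enterocyte-enriched in turn), with log2 fold changes of -2.02 and -1.43 against Lgr5-enriched (limma, adjusted p = 0.000624 and 0.00196). Ppat, the first committed enzyme, gave -1.99 and -1.28 (limma, adjusted p = 0.000209 and 0.00119). The exception was Impdh1, an enzyme of guanine nucleotide synthesis, at 44.3 ± 3.8, 88.2 ± 12.4 and 12.8 ± 6.19 TPM (SD, n = 3). It was higher in goblet-enriched than in Lgr5-enriched by 0.97 (limma, adjusted p = 0.0293), a call that ended when any 1 Lgr5-enriched library, or goblet-enriched replicate 2 or 3, was left out. In the methionine cycle 5 of 9 genes were lower in goblet-enriched against Lgr5-enriched, but 2 under median-of-ratios scaling or without Lgr5-enriched replicate 3, and 3 without Lgr5-enriched replicate 2 or any 1 goblet-enriched library. Of the same 9, 5 were lower and 1 higher in enterocyte-enriched against Lgr5-enriched, with and without enterocyte-enriched replicate 1, and 55.6% lower in either comparison stands beside 23.6% and 37.6% of all genes. Mtr, the folate-dependent methionine synthase, stood at 9.32 ± 1.92, 5.89 ± 0.706 and 2.87 ± 0.457 TPM (SD, n = 3; Lgr5-, goblet- and enterocyte-enriched in turn) and was called lower in the enterocyte- than in the Lgr5-enriched population (-1.40; limma, adjusted p = 0.000642). Mat2a, which makes the methyl donor, stood at 289 ± 37.3, 214 ± 19.2 and 309.5 ± 16.7 TPM (SD, n = 3). Of 5 transsulfuration and glutathione genes, 4 were lower in goblet-enriched against Lgr5-enriched (80% beside 23.6% of all genes). Among them were the glutathione synthetase Gss at -2.03 (limma, adjusted p = 4.18e-05) and Cth at -1.51 (adjusted p = 0.000205). Cbs, which joins serine to homocysteine, was not called there (0.27; limma, adjusted p = 0.457). It was lower in enterocyte-enriched than in Lgr5-enriched by -1.71 (limma, adjusted p = 0.000892), as were 2 others of the 5. The count stayed at 3 without enterocyte-enriched replicate 1, and 60% lower stands beside 37.6% of all genes.

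ATF4 is the transcription factor of the amino acid and stress response, and several members, among them Phgdh, Psat1, Shmt2 and Mthfd2, are known targets of it. Of 18 response genes, 7 were higher and 0 lower in goblet-enriched against Lgr5-enriched, and 13 higher and 0 lower in goblet-enriched against enterocyte-enriched (8 and 13 higher without enterocyte-enriched replicate 1). These are 38.9% and 72.2% of the list, beside 10.7% and 28.2% of all genes called higher. Their median log2 fold changes were 0.65 and 1.27, against -0.26 and 0.20 for all genes. Atf4 itself stood at 567, 651 and 537 TPM in the Lgr5-enriched replicates, 1124, 1093 and 941 TPM in the goblet-enriched and 276, 613 and 592 TPM in the enterocyte-enriched. The goblet-enriched libraries lay above all others, by 0.85 against Lgr5-enriched (limma, adjusted p = 0.0423) and 1.17 against enterocyte-enriched (adjusted p = 0.00852). The former call held in 12 of 20 alternatives, with adjusted p from 0.00154 to 0.124, and ended when any 1 Lgr5- or goblet-enriched library was left out. Asns, asparagine synthetase, stood at 69.6 ± 17.6, 141 ± 38.2 and 33.3 ± 5.62 TPM (SD, n = 3; Lgr5-, goblet- and enterocyte-enriched in turn), an order it shared with Mthfd2. The other targets named, Phgdh, Psat1 and Shmt2, did not share it. Their means were 55.7, 28.3 and 79.7 TPM in the Lgr5-enriched and 16.2, 18.0 and 43.1 TPM in the goblet-enriched population. Asns was higher in goblet-enriched than in Lgr5-enriched by 1.01 (limma, adjusted p = 0.0107). Chac1, which degrades glutathione, was higher by 3.38 (limma, adjusted p = 0.00208) and the secreted hormone gene Stc2 by 2.25 (adjusted p = 0.000593). In enterocyte-enriched against Lgr5-enriched 7 of 18 were lower, which at 38.9% is close to the 37.6% of all genes, and 0 were higher. That count was 5 lower and 1 higher without enterocyte-enriched replicate 1, 4 lower without Lgr5-enriched replicate 3, and 2 lower and 2 higher under median-of-ratios scaling. The part of these genes in the members' levels was not tested.

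**Figure D5:**
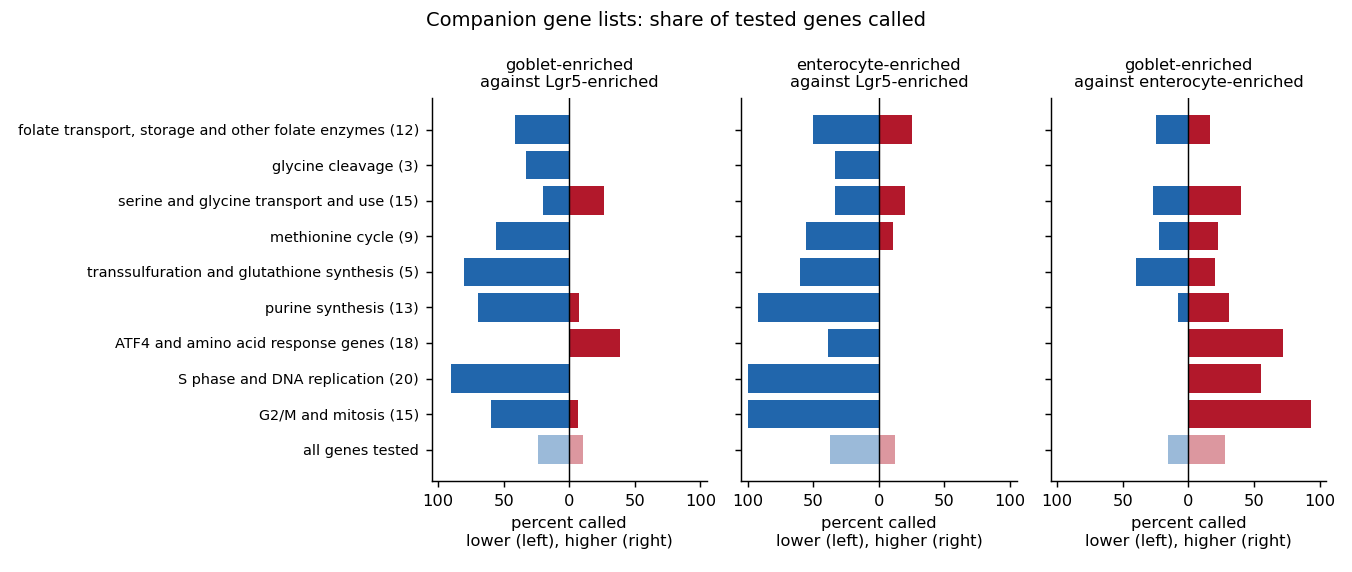
Percent of the tested genes of each related list called lower (blue, left) or higher (red, right) in the 3 comparisons, with the number tested in parentheses and all 12888 genes tested in pale bars at the bottom. The ATF4 and amino acid response list has calls only to the right in goblet-enriched against Lgr5-enriched (7 of 18), where the S phase list has calls only to the left (18 of 20).

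The genes most like each member over the 9 libraries, among 9283 tested genes with a mean of at least 10 TPM, are given as a description by Pearson's r of log2(TPM + 1), over libraries that share populations. Those nearest to Phgdh were Birc5 (r = 0.996) and Kif2c (0.994), both of mitosis, then Trmt6 (0.993), Prr11 (0.993) and Cinp (0.993). Birc5 stood at 51.9, 30.9 and 47.0 TPM in the Lgr5-enriched replicates, 26.0, 17.5 and 29.5 TPM in the goblet-enriched and 12.3, 7.38 and 12.4 TPM in the enterocyte-enriched, with replicate 2 lowest in each population, as for Phgdh. Nearest to Psat1 were the spindle checkpoint gene Mad2l1 (0.990) and the histone variant gene H2afz (0.990). For Psph they were Alkbh3 (0.978) and Kmt2a (0.974), and for Shmt2 Dazap1 (0.992) and Rangap1 (0.992). Nearest to Shmt1 were the gene model Gm4737 (0.997) and Mthfd1 (0.995), and nearest to Mthfd1 were Shmt1 and Sema5a (0.993). Mthfd1l was most like the uracil glycosylase gene Ung (0.987) and Cep152 (0.984), and Mthfd2 most like Ywhaq (0.991) and Fam49b (0.987). Nearest to Aldh1l2 were Srprb (0.984) and Copz1 (0.983), which serve the secretory pathway. Among the members the values of r with Mthfd2 were 0.862 for Mthfd1l, 0.849 for Aldh1l2, 0.830 for Psat1 and 0.693 for Phgdh, but -0.02 for Shmt1 and -0.01 for Mthfd1.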

How the data were processed

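Poly-A RNA of 9 libraries was sequenced, per the labels' protocols with a stranded kit on either of 2 instruments. The deposited table holds log2 values made by the authors: log2(TPM) at 1 TPM and above, and TPM minus 1 below, as the values show. Back-transformed columns each summed to 1000000. Cufflinks and mm10 are named in the submitters' processing notes, whereas the aligner and strand use were not stated in any source used here. There were 0 unused per-sample columns. Reads were recovered from the TPM steps as whole numbers for 18386 of 18396 genes above 0 (tolerance 1e-06 of a read), and are lower bounds.

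The test was limma's moderated linear model (limma 3.58.1, R 4.3.3, eBayes with trend) of log2(TPM + 1), fitted on 9 libraries with a mean for each population. A gene entered when 3 or more libraries reached 1 TPM, which kept 12888 genes and dropped 5508 others above 0. Residual degrees of freedom were 6, with 3.21 more from the prior. Two-sided p-values were adjusted by Benjamini-Hochberg over all genes within a comparison, and calls are below 0.05. The pseudocount understates the change of low genes. The fit was tested on simulated data. Ratios were compared by exact permutation tests (scipy 1.17.1). Gene positions are from GENCODE (mm10) and promoters from RefSeq (GRCm38.p6).

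The members and the gene lists were chosen with earlier results of these data known. Named were the 9 members, the genes fixed by name (among them Tyms, Mtr, Mat2a, Slc25a32, Sfxn1, Gldc, Atf4, Asns and Myc), up to 3 called genes with the largest change from each list and comparison, and the genes of highest r with each member. Some of these genes are not reported here, and overlapping genes and cell type markers were named beside them. Same-numbered libraries deviated together from their population means (r of 0.194 to 0.601 in 9 pairs, against -0.520 to 0.166 in 18 other pairs), and the replicate number was tried as a block. The series text speaks both of 3 mice in all and of a separate mouse for each replicate, the labels do not say which library came from which mouse, and enterocyte-enriched replicate 1 differed from the other replicate 1 libraries in Xist (0.128 against 150.0 and 110.3 TPM). The number is therefore not known to stand for a mouse, and p-values measure the spread between libraries. The 20 alternatives were other pseudocounts, no filter, other scalings, the block, array weights, subsets of the libraries, leaving out each library, and limma-voom on recovered reads, the last chosen after seeing the data.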

Additional observations from a re-analysis of the deposited data

How the results depend on the processing

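Counts of members here also leave out Aldh1l2, and Phgdh in the comparisons that chose it. Over 20 alternatives the counts of members called stayed within 1.5 times of those reported, except that goblet-enriched against Lgr5-enriched gave 2 without Lgr5-enriched replicate 3. Leaving out 1 library at a time gave 2 to 4 calls in goblet-enriched against Lgr5-enriched and 6 to 7 in enterocyte-enriched against Lgr5-enriched. It gave 5 each time in goblet-enriched against enterocyte-enriched. With the replicate block the counts were 4, 7 and 5, and pairing changed no member's call. The block moved many list counts, of which only some stand with the lists. In goblet-enriched against Lgr5-enriched it gave 20 S phase genes lower, 11 purine genes lower and 1 higher, and 9 ATF4 response genes higher. The folate and methionine lists there gave 6 lower each. Enterocyte-enriched against Lgr5-enriched gave 4 higher and 7 lower serine and glycine genes, and 4 lower transsulfuration and glutathione genes. For the members, leaving out replicate 1 of every population gave 3, 6 and 5 calls. Differences that turned in sign were not called in either setting, other than that of Psph in enterocyte-enriched against Lgr5-enriched, which was 0.0314 under quantile normalization. Mthfd1l in goblet-enriched against Lgr5-enriched turned to 0.143 when scaled to the median of ratios and 0.179 when quantile normalized, and ran from -0.201 to 0.0383 with 1 library left out, above 0 for Lgr5-enriched replicate 3 and goblet-enriched replicate 2 (0.0236). Psph in goblet-enriched against enterocyte-enriched turned to -0.0274 and -0.0619 under the same scalings. Mthfd1 in that comparison ran from -0.3917 to 0.108 with 1 library left out, above 0 without goblet-enriched replicate 1. The untested Phgdh difference between enterocyte- and Lgr5-enriched was -4.67 with limma-voom. The cause of these changes was not tested. Lost calls were limited to Psph, Shmt2 and Mthfd2, as given beside their values. At 3 to 61 reads outside the goblet-enriched population, the depth limits what can be read of Aldh1l2 there.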
